A study of Mus musculus with 16 samples.

Results

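Cultured mouse THY-1+ germ cells treated with 20 ng/mL FGF9 were compared directly with the same cells treated with 1 ng/mL FGF2, to ask at which genes the transcriptomes under the 2 ligands differ. The libraries were chosen by their labels: 4 of the 16 samples carry the first treatment and 4 the second, and the deposited results were taken to rest on 3 libraries per group. Of 54432 genes in the table, 17755 had a mean of at least 10 normalized counts over all libraries, and 17726 of these also had a rebuilt mean of at least 1 in every group and were tested.

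All cultures came from testes of C57 LacZ pups of 5 to 8 days, were used between passages 9 and 12 and grew on STO cells, a mouse fibroblast line that serves as feeder. Before treatment every culture had been maintained with 1 ng/mL FGF2. During the 7 days of treatment GDNF at 20 ng/mL and its receptor GFRα1 at 150 ng/mL were given to all groups. To these was added no FGF but the vehicle (control), FGF9 at 1 ng/mL (low FGF9), FGF9 at 20 ng/mL (high FGF9) or FGF2 at 1 ng/mL. The germ cells were blown off the feeder before RNA extraction. The factors were compared at different doses, so an effect of the ligand and an effect of the dose cannot be told apart.

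Fibroblast growth factors are secreted ligands that bind FGF receptors together with heparan sulfate and signal through ERK and other kinases. FGF2 is a usual supplement of spermatogonial stem cell cultures, and FGF9 is known in the testis for its part in male sex determination. GDNF, present in all groups here, maintains spermatogonial stem cells through GFRα1 and RET and feeds into many of the same intracellular targets.

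The table gives 1 mean per gene over all libraries and comparisons with control, and no value per library. The mean of each group was therefore rebuilt from these columns (normalized counts, comparable between groups for 1 gene but not between genes). A model 95% interval of the group mean, from the fitted spread between libraries, is given because no standard deviation could be computed. It narrows as libraries are added and is not the range of the libraries. The depth of the single libraries is not known. Nothing states that the libraries of a group came from separate animals, so the spread that the p-values measure may be technical. Germ cell markers were abundant in all 4 groups, with rebuilt means of Ddx4 (a germ cell RNA helicase) from 11245 to 11869 and of Dazl (a germ cell RNA-binding protein) from 46252 to 49281. Markers of Leydig cells (Cyp17a1, Insl3) and macrophages (Adgre1, Csf1r) were at most at 4.22 normalized counts in any group. Other markers of somatic cells were measured, with the steroid transport gene Star from 77.2 to 80.2 and the leukocyte antigen Ptprc from 90.6 to 99.0. The endothelial Pecam1 ran from 120.3 to 181, and the endothelial Cdh5 from 28.6 to 37.2. Among Sertoli genes, Sox9 ran from 380.1 to 446 and Wt1 from 232 to 289. The Sertoli genes Gata4, Amh and Fshr were at most at 11.2, 3.96 and 0.111. In bulk RNA, fewer cells of a type and less RNA per cell cannot be told apart.

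In the direct comparison, 208 genes passed an adjusted p of 0.05, which is 1.17% of the genes tested. Of these, 144 (0.812%) were higher and 64 (0.361%) lower with 20 ng/mL FGF9 than with FGF2. The higher genes differed more, with a median ratio of 2.57 and a range from 1.12 to 11.9. The lower genes had a median of 1.48-fold lower, and 52 of the 64 differed by less than 1 on the log2 scale. For most genes of either kind FGF2 stood near the control. Among the 144, the rebuilt mean with 20 ng/mL FGF9 was a median of 2.21 times control, against 1.02 with FGF2 and 1.05 with 1 ng/mL FGF9. Among the 64, these medians were 0.719, 1.05 and 0.951. The group with 20 ng/mL FGF9 had the highest of the 4 means in 142 of the 144 and the lowest in 61 of the 64. The comparison itself chose these genes, so the medians are descriptions.

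The median log2 difference of all genes was -0.0037. With a t distribution of 8 degrees of freedom in place of the normal, 0 of the 17726 genes passed (897 at an unadjusted p under 0.05, against 1473 with the normal). All calls therefore rest on taking the spread between libraries that was shared across genes as known.

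**Figure D1:**
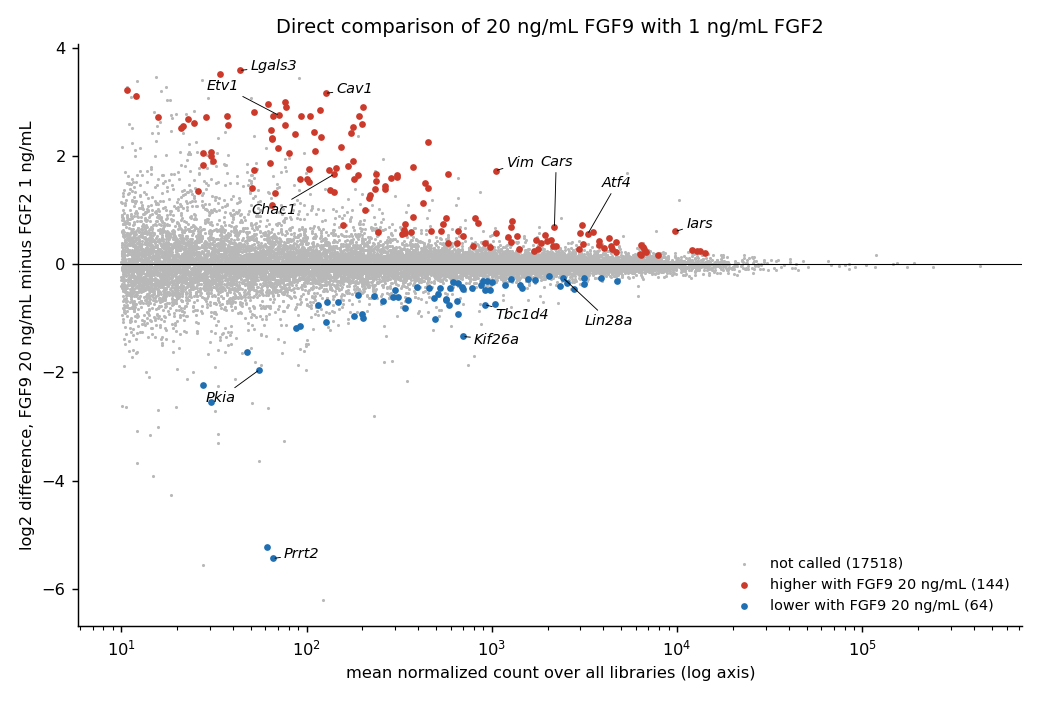
Log2 difference, high FGF9 minus FGF2 (vertical axis), against the mean normalized count over all libraries (horizontal log axis) for the 17726 genes tested. The 144 genes called higher are red and the 64 called lower are blue, and called genes with means above 1000 mostly lie closer to 0 than called genes with means under 100.

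The largest ratio among named genes with a mean of at least 50 was that of Cav1. Cav1, the coat protein of caveolae (GRCm38 chr6:17306335-17341452, plus strand), had rebuilt means of 16.1 in control, 85.0 under low FGF9, 365 under high FGF9 and 41.0 under FGF2. The mean with the high FGF9 dose exceeded all others, and its interval (243 to 548) did not reach that of FGF2 (26.4 to 63.6). The ratio to FGF2 was 8.90 (95% interval 4.88 to 16.2, adjusted p = 2.71e-09). Cavin2, a second caveolar protein, stood at 10.6, 19.3, 104 and 17.6 in the same order of groups, a ratio of 5.91 (adjusted p = 0.0115). The other 7 of the 9 measured caveolar genes did not pass (22.2% called, beside 1.17% of all genes tested). Cavin1 had a ratio of 0.935 (interval 0.872 to 1.00).

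Emp1, a small membrane protein, had means of 33.9, 58.3, 333 and 46.6 in control, low FGF9, high FGF9 and FGF2 (ratio 7.15, interval 4.22 to 12.1, adjusted p = 1.1e-09). Cald1, an actin- and myosin-binding protein, had 101, 216, 435 and 57.9 (ratio 7.51, adjusted p = 8.58e-05). Further genes with ratios between 5.92 and 7.99 were the noncoding Dnm3os, the secreted Oaf, the sterol enzyme Hsd3b7, the prohormone-processing enzyme Cpe, the tetraspanin-like Tm4sf1, the phospholipase Pla2g4a, the palmitoyltransferase Zdhhc2, the surface sialomucin Cd34 and the ETS factor Etv1. All of these had a higher mean with 20 ng/mL FGF9 than in any other group. Pla2g4a, with 99.7, 80.1, 170 and 25.7 in the same order of groups, was also lower under FGF2 than in control. The rebuilt mean under FGF2 was below control in Cald1, Cpe, Hsd3b7, Oaf, Zdhhc2, Cd34 and Etv1 too, and above it in Emp1, Dnm3os and Tm4sf1. The model's variation between libraries was 69.2% in Dnm3os (interval of the ratio 2.57 to 24.8), 62.5% in Etv1, 57.1% in Zdhhc2 and 55.2% in Pla2g4a. Lgals3, a galactoside-binding lectin named after its value was seen (its mean is under 50), had the largest ratio of the 144, with means of 3.32, 6.42, 152 and 12.7 (ratio 11.9, interval 3.85 to 37.0). For these genes and the caveolar genes above, the part of feeder cells was not tested.

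Fibroblast genes were compared as a list, since the feeder is a fibroblast line. Of 29 measured members, 7 were higher with 20 ng/mL FGF9 than with FGF2, 0 were lower and 22 did not pass. The share called was 24.1%, beside 1.17% of all genes tested. The median log2 difference was 0.78, beside -0.0037 for all genes. The estimate was positive in 24 of the 29 and negative in 5, beside 8673 positive of all 17726 genes tested. An unadjusted p under 0.05 was found in 15 of the 29, beside 1473 of the 17726. The 7 were Cd44 (a hyaluronan receptor), Vim (the intermediate filament of mesenchymal cells), S100a4 (a calcium-binding protein of fibroblasts), Dcn and Bgn (small matrix proteoglycans), Sparc (a matrix-binding glycoprotein) and Timp3 (a metalloproteinase inhibitor). Vim had means of 645 in control, 729 under low FGF9, 2168 under high FGF9 and 655 under FGF2, a ratio of 3.31 (interval 2.26 to 4.85, adjusted p = 1.13e-06). Under FGF2 it lay within the control interval of 492 to 846. S100a4 stood at 36.6, 119, 454 and 85.0, a ratio of 5.34 (adjusted p = 7.73e-06). Cd44 had 83.0, 103, 304 and 88.4, a ratio of 3.44 (adjusted p = 3.67e-08).

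Members that did not pass included collagens and fibronectin. Col1a1, the main collagen chain of fibroblasts, had 2302 with FGF9 and 2587 with FGF2 (ratio 0.890, interval 0.755 to 1.05). Fn1, fibronectin, had 11102 and 10615 (ratio 1.05, interval 0.939 to 1.17). Col1a2 had a ratio of 2.39 with an interval from 1.00 to 5.73 (adjusted p = 0.600). Acta2 and Sox7, used with Thy1 as feeder markers in the study's single-cell data, were at 10.3 and 2.19 normalized counts with FGF9 and at 9.75 and 1.25 with FGF2, under the limit for testing. Thy1 itself had 119 and 38.8 (ratio 3.08, interval 1.10 to 8.57, adjusted p = 0.502). The summed rebuilt mean of the 29 members was 28510 with FGF9, 22723 with FGF2, 21521 in control and 23265 under low FGF9. Lum, a matrix proteoglycan, was near 0 in every group. The part of feeder cells in these differences was not tested.

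The model's coefficient of variation between libraries ranged from 20.9% to 34.8% in the 7 fibroblast genes, against a median of 12.4% over all genes tested. Among annexins and S100 proteins, 2 of 14 measured members were higher (S100a4 and S100a6) and 0 lower, with a median log2 difference of 0.60. The share called was 14.3%, beside 1.17% of all genes tested. S100a6, a calcium-binding protein, had 828 with FGF9 and 293 with FGF2 (ratio 2.82, adjusted p = 0.00022). Of 19 contractile and SRF target genes, Cald1 alone passed (5.26%, beside 1.17% of all genes tested), and the median was 0.07. Of 27 integrins and laminins 0 passed, with 2 at an unadjusted p under 0.05.

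Secreted factors and other genes outside the lists also differed, all but Csf1 named after their values were seen. Csf1, the macrophage colony-stimulating factor and a growth factor described in the spermatogonial niche, had means of 92.1, 135, 368 and 123 in control, low FGF9, high FGF9 and FGF2 (ratio 2.98, interval 1.66 to 5.37, adjusted p = 0.0296). Spp1, the secreted phosphoprotein osteopontin, had 413, 478, 1098 and 345 (ratio 3.19, adjusted p = 0.000202). Vcam1, an adhesion molecule, had 74.8, 171, 303 and 67.5 (ratio 4.48). Hmga2, an architectural chromatin protein, had 53.3, 49.1, 316 and 62.1 (ratio 5.08, adjusted p = 0.000293). In each, the mean under high FGF9 was the highest of the 4. The BMP antagonist Grem1 (ratio 4.93), the chemokine Ccl2 (4.42), the matrix protease Mmp3 (5.26) and the protease inhibitor Timp2 (4.78) were likewise higher with FGF9. So were the EGF family ligands Ereg (6.56) and Nrg1 (3.33). The fibroblast list was higher in 7 of 29 members in the same contrast, with a median log2 difference of 0.78, and its part in these differences was not tested.

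ATF4 is a transcription factor whose translation increases when eIF2α is phosphorylated, as under amino acid shortage or endoplasmic reticulum stress, and it induces amino acid transporters, biosynthetic enzymes and aminoacyl-tRNA synthetases. Of 35 measured members of this list, 12 were higher with 20 ng/mL FGF9, 0 were lower and 23 did not pass. The share called was 34.3%, beside 1.17% of all genes, and the median log2 difference was 0.40. The estimate was positive in 34 of the 35, the exception being Ddit4 (ratio 0.892, interval 0.764 to 1.04).

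Atf4 (chr15:80255184-80257541, plus strand) had the smallest p of all genes. Its rebuilt means were 2726 in control, 2689.9 under low FGF9, 4619 under high FGF9 and 3139 under FGF2. The ratio was 1.47 (interval 1.35 to 1.60, adjusted p = 1.16e-15), and the model's variation between libraries was 4.91%. Chac1, a glutathione-degrading enzyme (chr2:119351229-119354381, plus strand), had 65.0, 61.7, 332 and 105. The high FGF9 dose was 3.16 times FGF2 (interval 2.32 to 4.30, adjusted p = 1.1e-09), and its interval of 270 to 408 lay above those of all other groups.

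Slc1a4, a neutral amino acid transporter, had 274, 236, 643 and 350 (ratio 1.84, interval 1.53 to 2.19, adjusted p = 4.6e-08). Gpt2, the mitochondrial alanine aminotransferase, had 592, 706, 1313 and 776 (ratio 1.69, adjusted p = 9.46e-05). Asns, asparagine synthetase, had 2416, 2535, 4189.6 and 2831 (ratio 1.48, adjusted p = 0.00171). The remaining 7 were Psat1 of serine synthesis, Pycr1 of proline synthesis, the folate enzymes Mthfd2 and Aldh1l2, the cationic amino acid transporter Slc7a1, the translation repressor Eif4ebp1 and the stress factor Ddit3, with ratios from 1.27 to 2.65. In 10 of the 12 the mean with FGF2 was above control, and in all 12 that with 20 ng/mL FGF9 was the highest.

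Aminoacyl-tRNA synthetases charge tRNAs with their amino acids. Of 20 measured cytoplasmic members, 6 were higher with FGF9, 0 lower and 14 did not pass, with a median log2 difference of 0.14. The share called was 30%, beside 1.17% of all genes tested. Cars, for cysteine, had means of 1724, 1754, 3219 and 2009 in the order above (ratio 1.60, interval 1.40 to 1.83, adjusted p = 1.2e-08). Iars, for isoleucine, had 8217, 9049, 13158 and 8668 (ratio 1.52, adjusted p = 1.57e-06). Yars, Aars, Gars and Nars followed with ratios from 1.16 to 1.37. Members that did not pass included Qars, at a ratio of 0.934 (interval 0.879 to 0.994, adjusted p = 0.497), and Rars, at 1.01 (interval 0.924 to 1.10). The differences were thus unequal within the family.

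Chaperones and other genes of the endoplasmic reticulum stress response were named after their values were seen. Herpud1, of protein degradation at the endoplasmic reticulum, had 425, 399, 915 and 510 (ratio 1.79, adjusted p = 0.000198). Hspa5, the chaperone BiP, had a ratio of 1.18 (interval 1.09 to 1.28), and Xbp1, a transcription factor of the unfolded protein response, one of 1.21 (interval 1.11 to 1.32). Calr, another chaperone there (listed with MHC class I), had 0.997 (interval 0.917 to 1.08). Canx, also a chaperone there, was called higher, with mean intervals of 12854 to 14617 under high FGF9 and 10723 to 12198 under FGF2. Ddit3 (the factor CHOP) had 285, 272, 502 and 302, a ratio of 1.66 (interval 1.29 to 2.15, adjusted p = 0.0133). The fibroblast genes described above differed in the same contrast, and their part in these differences was not tested.

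The promoters of these genes are shown because ATF4 binds a known composite element whose core can be searched in sequence. The letters TGATGNAA were looked for on both strands in 32851 windows of 300 bases (250 before to 50 after the annotated start, RefSeq, GRCm38.p6). They occurred in 3.97% of all windows. Of 12102 tested genes with a window, 2.67% had the core in at least 1. It was present in 11 of 104 genes called higher (10.6%) and in 1 of 42 called lower (2.38%). In the ATF4 list 9 of 29 genes with a window had it, and 4 of the 10 that were called. Among the synthetases it was 5 of 12 and, of the called members with a window, 4 of 4 (6 were called). The 11 were Aars, Asns, Chac1, Ctsl, Gars, Herpud1, Iars, Pycr1, Serpinf1, Slc1a4 and Yars. In the following stretches of 60 bases before the start, each 5′ to 3′ on the gene's strand, capitals mark the core or its reverse complement.
Chac1, chr2:119351023-119351082, plus strand: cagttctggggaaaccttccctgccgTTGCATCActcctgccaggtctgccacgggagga
Asns, chr6:7693210-7693269, minus strand: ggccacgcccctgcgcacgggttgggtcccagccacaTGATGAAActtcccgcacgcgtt
Aars, chr8:111033704-111033763, plus strand: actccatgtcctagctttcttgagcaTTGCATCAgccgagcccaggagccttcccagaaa
Pycr1, chr11:120643818-120643877, minus strand: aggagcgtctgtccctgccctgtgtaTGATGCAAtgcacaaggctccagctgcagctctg

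The core began 193 bases before the start in Chac1, 112 in Aars, 103 in Pycr1 and 23 in Asns. These starts are those of RefSeq. In the GENCODE annotation the stretch of Aars lies inside the gene and that of Asns partly inside it. A match describes the letters, not binding.

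Of 49 measured interferon-stimulated genes, 5 were higher under high FGF9 than under FGF2, 0 were lower and 44 did not pass. The share called was 10.2%, beside 1.17% of all genes tested. Interferons induce genes that restrict viruses and present antigen. The median log2 difference was 0.37, and 43 of the 49 estimates were positive, beside 8673 of all 17726 genes tested. Rtp4, a chaperone of membrane receptors, had means of 18.0, 14.3, 72.3 and 17.2 in control, low FGF9, high FGF9 and FGF2 (ratio 4.21, interval 2.25 to 7.88, adjusted p = 0.00174). Ifit3, which acts with other IFIT proteins on viral RNA, had 4.28, 6.57, 33.2 and 3.85 (ratio 8.62, interval 2.58 to 28.9, adjusted p = 0.0428). In both, high FGF9 stood above the other groups. Ifi27 and the viral tether Bst2 had ratios of 1.55 and 1.32. Stat2, a transcription factor of the interferon response, did not pass, with a ratio of 0.991 (interval 0.868 to 1.13). Oas3 ran the other way, at 27.4 against 64.1 (adjusted p = 0.151). With no minimum of the mean, 3 of the 5 still passed, and Ifit3 also lost its call with 4 libraries assumed (adjusted p = 0.0512) or the larger standard error (0.0862).

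Antigen presentation by MHC class I partly overlaps this list. Of 20 measured members 3 were higher and 0 lower (15% called, beside 1.17% of all genes), with a median log2 difference of 0.27. B2m, the invariant light chain, had 701, 745, 1167 and 648 (ratio 1.80, interval 1.31 to 2.48, adjusted p = 0.0324). H2-K1, a heavy chain, had 502, 446, 718 and 472 (ratio 1.52, adjusted p = 0.0356), and its reads can be shared with near-identical class I genes. Erap1, which trims peptides, had a ratio of 1.21 (adjusted p = 0.0406). The summed mean of the 49 interferon-stimulated genes was 27703 under high FGF9, 23518 under FGF2, 21549 in control and 21638 under low FGF9. The fibroblast list differed in the same direction, and its part in these differences was not tested.

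The core of the interferon response element, searched as GAAANNGAA on both strands, was in 8.56% of all windows and in 8.40% of tested genes. Of the 3 called interferon-stimulated genes with a window, 3 had it, and of all 39 listed genes with a window, 23 had it. Among all genes called higher it was in 13 of 104 (12.5%) and among those called lower in 3 of 42 (7.14%). The stretches that hold it in the 3 called interferon-stimulated genes are given in the same way, with overlapping matches run together.
Ifit3, chr19:34583369-34583440, plus strand: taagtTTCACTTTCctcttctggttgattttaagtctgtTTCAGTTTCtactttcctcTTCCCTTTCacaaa
B2m, chr2:122147522-122147581, plus strand: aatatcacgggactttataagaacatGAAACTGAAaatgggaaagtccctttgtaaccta
Bst2, chr8:71537566-71537625, minus strand: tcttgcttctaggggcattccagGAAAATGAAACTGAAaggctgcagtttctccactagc

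Ifit3 holds 3 matches, the first 155 and the last 102 bases before the start, all on the opposite strand. For Bst2 the bases after the RefSeq start were not found in its GENCODE transcripts, so its start is less certain. Of the other motifs searched, TGANTCA (an AP-1 site) was in 8.65% of genes called higher and 6.02% of tested genes, and CCGGAAGT (an ETS site) in 2.88% and 8.35%. Each motif was counted on its own, overlaps with others allowed.

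**Figure D2:**
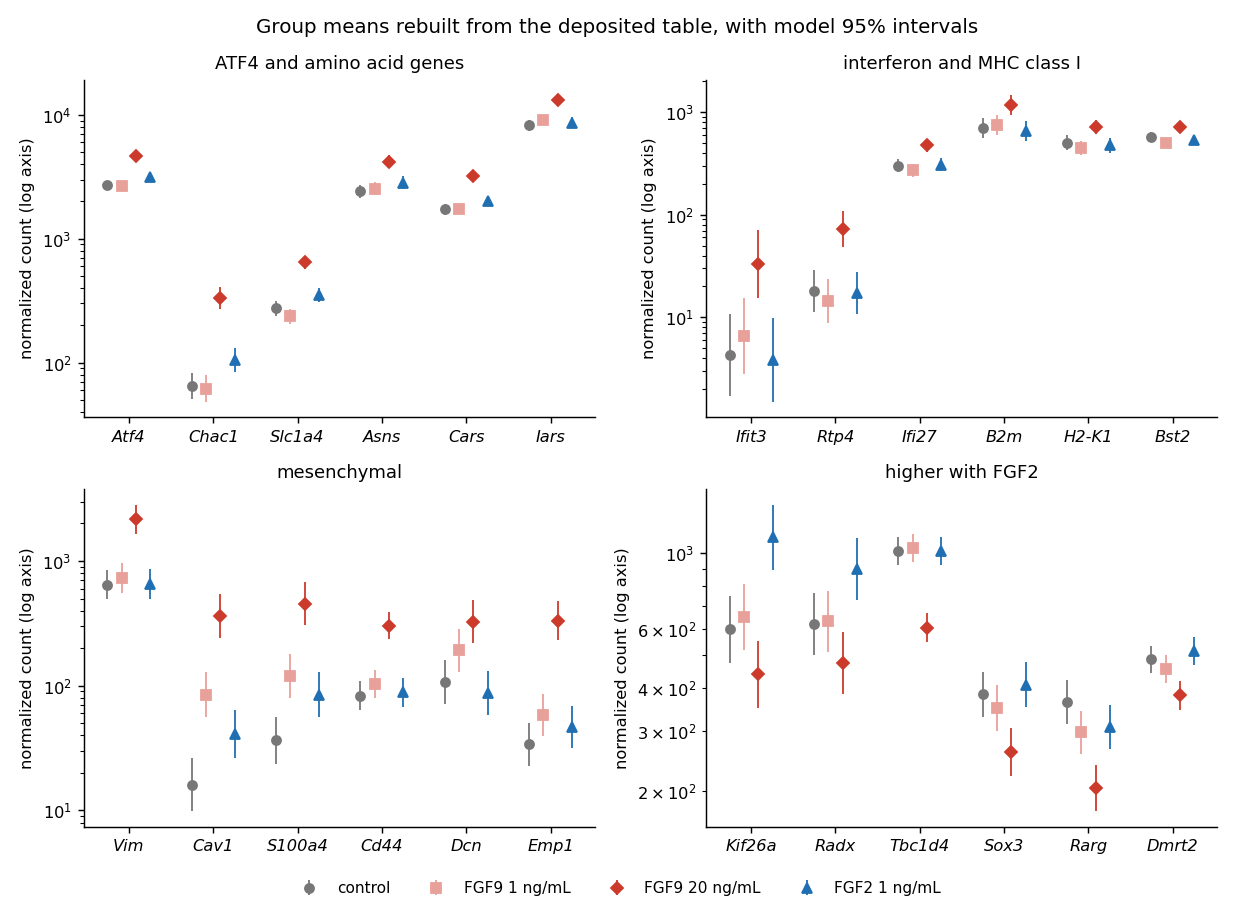
Rebuilt mean normalized count (log axis) of 24 called genes under the 4 treatments, with bars for model 95% intervals of the group mean. In the first 3 panels the red diamonds of high FGF9 lie above the other groups, and in the panel of genes higher with FGF2 they lie below.

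Genes lower with FGF9 than with FGF2 included few members of any list. Kif26a, a kinesin-like protein (chr12:112146208-112181747, plus strand), had rebuilt means of 597 in control, 649 under low FGF9, 440.4 under high FGF9 and 1113 under FGF2. It was 2.53-fold lower with FGF9 (interval 1.84 to 3.47, adjusted p = 8.54e-06), with the FGF2 interval of 890.2 to 1391 above those of the other groups. Radx, a regulator of replication forks on single-stranded DNA, showed the same order, with 620, 630, 475 and 899 (1.89-fold lower, adjusted p = 0.0048). Here FGF2 was the group above the rest.

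Tbc1d4, a RAB GTPase-activating protein (chr14:101442360-101609191, minus strand), had another pattern. Its means were 1013, 1039, 603 and 1014, with high FGF9 below the other groups (1.68-fold lower than FGF2, interval 1.46 to 1.93, adjusted p = 1.1e-09). Ephb2, an ephrin receptor, had 247, 241, 105 and 199 (1.90-fold lower, adjusted p = 0.000701). Among the 64, FGF2 had the highest mean in 40, control in 17 and 1 ng/mL FGF9 in 7.

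Prrt2, a presynaptic membrane protein, had the lowest ratio of the 64. Its means were 48.4, 22.2, 4.38 and 190, or 43.3-fold lower with an interval of 7.10 to 264. Its modelled variation between libraries was 108%. The kinase inhibitor Pkia (3.87-fold lower), the matrix proteoglycan Bcan (2.28), the adaptor Dok2 (2.20), the calcium channel Cacna1b (2.03), the homeobox gene Irx1 (2.00) and Nol4 (1.76) were also among the 12 largest differences once genes with means under 50 or predicted symbols were set aside, with Eng, a TGF-β co-receptor, at 2.11 (means of 76.0 and 160 with FGF9 and FGF2, adjusted p = 0.0388).

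Of 30 measured genes of undifferentiated spermatogonia, 0 were higher, 3 were lower and 27 did not pass (10% called, beside 1.17% of all genes). The median log2 difference was -0.11. The estimate was negative in 24 of the 30, beside 9053 of all 17726 genes tested. It was negative as well in 13 of 17 genes of differentiating spermatogonia (median -0.096) and in 7 of the study's 8 differentiation genes. Some of the 30 are also self-renewal genes that the study chose on these samples. The count is therefore not independent evidence of a direction. Sox3, a transcription factor of progenitor spermatogonia, had means of 384, 351, 260 and 410 in control, low FGF9, high FGF9 and FGF2 (1.58-fold lower, interval 1.26 to 1.97, adjusted p = 0.00909). Rarg, the retinoic acid receptor of cells competent to differentiate, had 364, 296, 203 and 308 (1.52-fold lower, adjusted p = 0.0172). Lin28a, an RNA-binding protein, had 2504, 2496, 2143 and 2558 (1.19-fold lower, adjusted p = 0.0361). In all 3 the high FGF9 dose was the lowest group. Neurog3, another progenitor factor, had 178 and 239 with FGF9 and FGF2 (ratio 0.744, interval 0.524 to 1.06) and did not pass.

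Outside the lists and chosen after its values were seen, Crabp2, a retinoic acid-binding protein, had 1672, 1582, 1101 and 1485 (1.35-fold lower, adjusted p = 5.41e-05). Its relative Crabp1, on the list of 17 differentiating spermatogonia genes of which 0 passed, had 393, 392, 233 and 359 (1.54-fold lower, interval 1.20 to 1.97, adjusted p = 0.0537). Flt3, a receptor tyrosine kinase, and Plagl1, an imprinted zinc-finger factor, also named after their values were seen, were 1.61- and 1.37-fold lower.

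**Figure D3:**
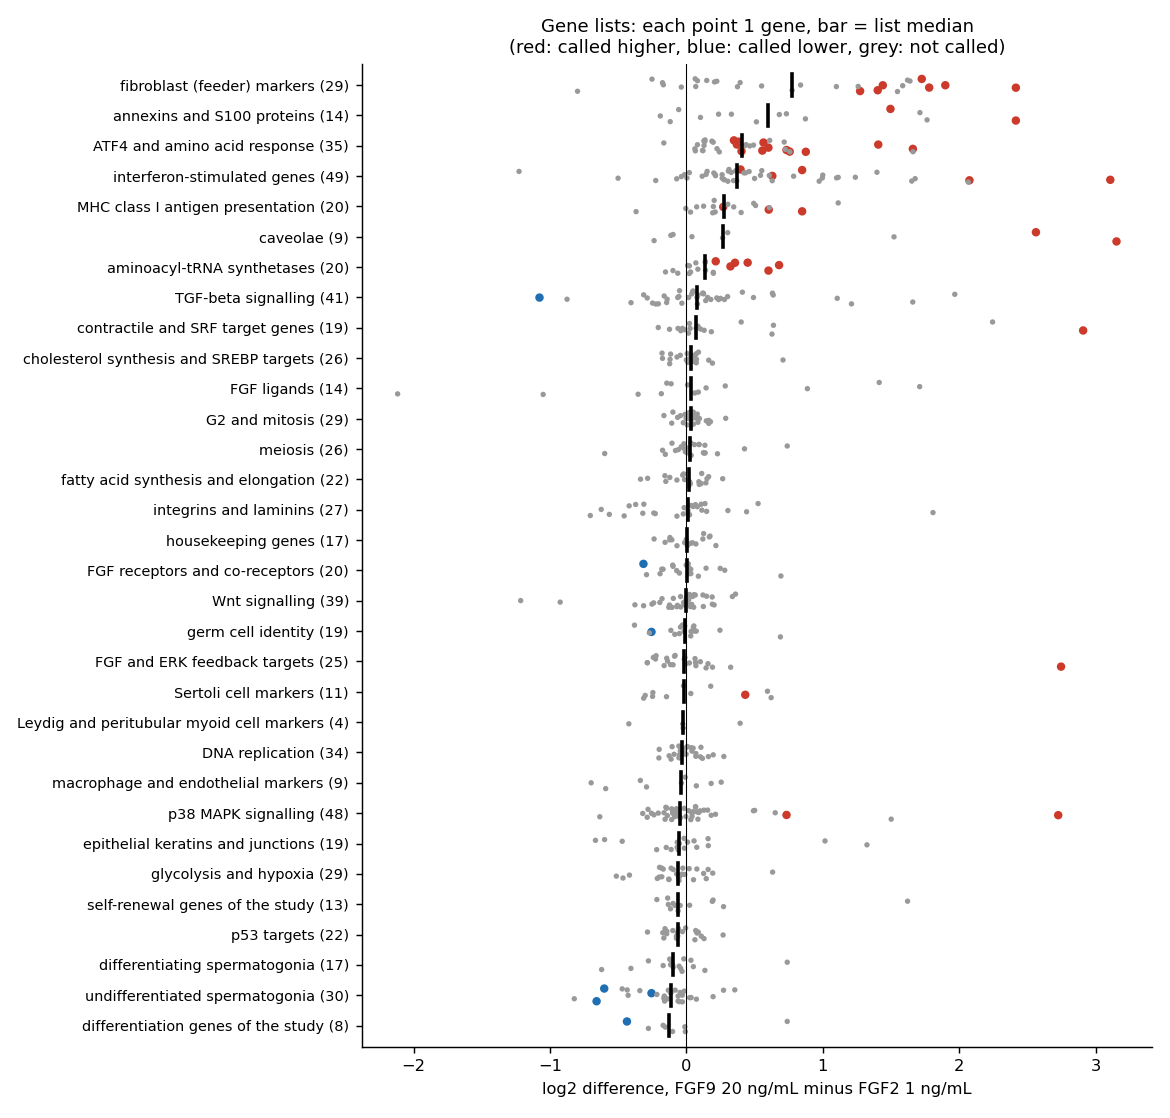
Log2 difference of every measured member of the 32 gene lists (1 point per gene, number of members in brackets), with the list median as a black bar and called genes in red or blue. The medians run from -0.13 for the differentiation genes of the study to 0.78 for fibroblast markers.

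The self-renewal genes did not differ past the threshold. The study chose and showed these genes on these samples, so their counts are not independent evidence of a direction. Of 13 measured, 0 passed, with 1 (Thy1) at an unadjusted p under 0.05 and a median log2 difference of -0.06. Ret, the GDNF receptor kinase, had 17345 with FGF9 and 18358 with FGF2 (ratio 0.945, interval 0.870 to 1.03). Gfra1, its co-receptor, had 12138 and 12528 (0.969, interval 0.890 to 1.05). Id4, an inhibitor of bHLH factors, had 766 and 669 (1.15, interval 0.989 to 1.33), and Bcl6b, a repressor induced by GDNF, had 5298 and 5210 (1.02, interval 0.829 to 1.25).

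The intervals give the range of ratios under the model, which takes the spread between libraries as known. Sdc4, a heparan sulfate proteoglycan, had a ratio of 0.935 (interval 0.837 to 1.04). Nanos2 (0.861, interval 0.705 to 1.05), Lhx1 (0.959, 0.807 to 1.14), T (0.910, 0.766 to 1.08), Eomes (0.913, 0.773 to 1.08) and Cxcr4 (1.14, 0.965 to 1.35) had wider intervals. That of Pou5f1 (1.21, 0.838 to 1.74) was the widest among the transcription factors.

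Of the 8 measured differentiation genes, also chosen by the study on these samples, 1 was lower, 0 were higher and 7 did not pass. That is 12.5% called, beside 1.17% of all genes tested. Dmrt2, a DM-domain factor, had means of 487, 457, 381 and 516 (1.35-fold lower, interval 1.18 to 1.55, adjusted p = 0.00285). Kit, the receptor of differentiating spermatogonia, had 593 and 719 with FGF9 and FGF2 (ratio 0.825, interval 0.667 to 1.02, adjusted p = 0.707). Stra8, induced by retinoic acid, had 58.2 and 34.8 (1.67, interval 1.13 to 2.48, adjusted p = 0.301). Sycp3 (0.995, interval 0.905 to 1.09), Ugt8a (0.992, interval 0.874 to 1.13), Dmrtb1 (0.933), Prdm9 (0.899) and Tex101 (0.889) did not pass either. Of the 8, 3 had an unadjusted p under 0.05 (Dmrt2, Stra8 and Tex101), beside 1473 of all 17726 genes tested. Dmrt2 alone passed after adjustment over all genes.

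**Figure D4:**
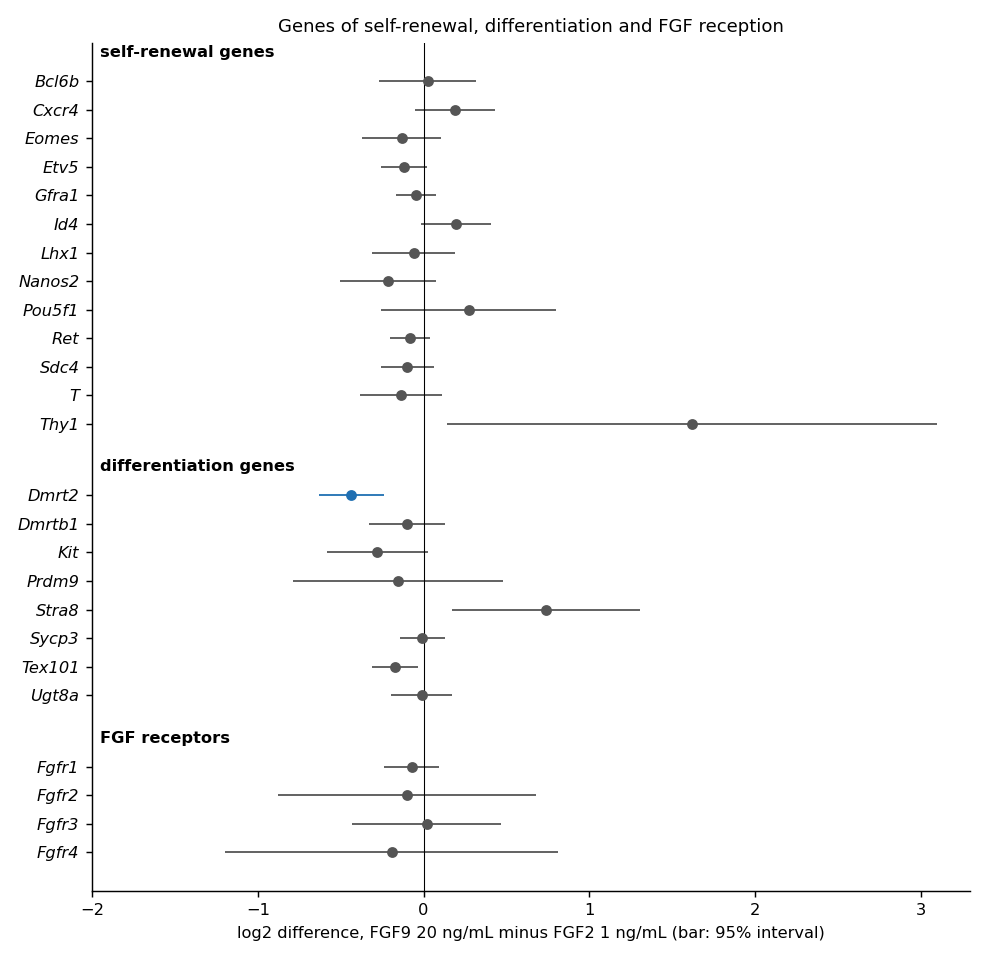
Log2 difference with 95% interval between high FGF9 and FGF2 for the study's 13 self-renewal genes, its 8 differentiation genes and the 4 FGF receptors. Dmrt2 (blue) is the only gene here that passed, and the intervals of Thy1, Stra8 and Tex101 exclude 0 without passing after adjustment over all genes.

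The receptors of both ligands did not differ detectably. Fgfr1 had 2926 with FGF9 and 3073 with FGF2 (ratio 0.952, interval 0.848 to 1.07). Fgfr3 had 174 and 172 (1.01, interval 0.741 to 1.38), Fgfr2 had 211 and 226 (0.933, interval 0.543 to 1.60), and Fgfr4 had 31.3 and 35.8 (0.875, interval 0.436 to 1.76). Of 20 measured receptors and co-receptors 1 passed (5%, beside 1.17% of all genes). It was the heparan sulfate proteoglycan Gpc3, with 747 and 929 (1.24-fold lower, interval 1.11 to 1.39, adjusted p = 0.015). Among 14 measured ligand genes 0 passed, with 4 at an unadjusted p under 0.05, beside 1473 of all 17726 genes tested. Endogenous Fgf9 had 943 and 937 (1.01, interval 0.818 to 1.24), and endogenous Fgf2 had 118 and 36.0 (ratio 3.27, interval 1.50 to 7.16, adjusted p = 0.140). Fgf12 was at 14.4 and 62.6 (adjusted p = 0.279).

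Feedback targets of FGF and ERK signalling report on pathway activity. Of 25 measured, Etv1 was higher, 0 were lower and 24 did not pass (4% called, beside 1.17% of all genes). The median log2 difference was -0.02. An unadjusted p under 0.05 was found in 6 of the 25, beside 1473 of all 17726 genes tested. Etv1 had 35.5, 44.5, 177 and 26.4 in control, low FGF9, high FGF9 and FGF2 (ratio 6.71, interval 2.40 to 18.8, adjusted p = 0.0308). Its modelled variation between libraries was 62.5%. Its relatives Etv4 and Etv5 had ratios of 0.857 (interval 0.750 to 0.980) and 0.923 (interval 0.838 to 1.02), with adjusted p = 0.437 and 0.767. The phosphatase Dusp6 had 7497 and 8019 (0.935, interval 0.854 to 1.02), and the inhibitors Spry2 and Spry4 had 1.05 and 0.945. The immediate early genes Egr1 (0.846, interval 0.748 to 0.956, adjusted p = 0.240) and Fos (0.820, interval 0.720 to 0.935, adjusted p = 0.141) did not pass.

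Of 48 measured genes of p38 MAPK signalling 2 were higher (Pla2g4a and Ddit3) and 0 lower, with a median log2 difference of -0.05. The share called was 4.17%, beside 1.17% of all genes tested. Mapk14, the p38α kinase, had 4986 and 5878 (ratio 0.848, interval 0.727 to 0.990, adjusted p = 0.532). Of 41 TGF-β genes 1 was lower (Eng) and 0 higher (2.44% called, beside 1.17% of all genes). An unadjusted p under 0.05 was seen in 12 of the 41, beside 1473 of all 17726 genes tested. Of 39 Wnt genes 0 passed, and Lef1 had 55.1 and 128 (2.32-fold lower, interval 1.02 to 5.26, adjusted p = 0.573).

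For DNA replication (34 genes), G2 and mitosis (29), cholesterol synthesis (26), fatty acid synthesis (22), glycolysis and hypoxia (29), p53 targets (22) and meiosis (26), 0 genes passed in any list. The medians ran from -0.06 to 0.04 on the log2 scale. In these lists 1, 1, 1, 4, 6, 1 and 2 genes had an unadjusted p under 0.05, beside 1473 of all 17726 genes tested. Of 19 germ cell identity genes Lin28a alone passed (5.26%, beside 1.17% of all genes). Of 19 epithelial keratins and junction genes and 17 housekeeping genes 0 did. Markers of other testis cells gave 1 call, Ctsl, a lysosomal protease listed among 11 Sertoli markers (9.09% called, beside 1.17% of all genes). Ctsl had a ratio of 1.35 (adjusted p = 0.000296), while Sox9 had 446 and 436 (1.02, interval 0.865 to 1.21) and Wt1 232 and 286 (0.811). Of 9 macrophage and endothelial markers and of 4 Leydig and myoid markers 0 passed.

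The threshold fell between Lrig3, just inside (ratio 1.53, adjusted p = 0.0499), and Adm, just outside (ratio 0.603, adjusted p = 0.0501).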

How the data were processed

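Poly(A) RNA was made into stranded libraries and read on a NextSeq500 instrument. Per the submitters' processing notes the authors used STAR, Salmon and the GRCm38 build, then compared each treatment with control in DESeq2 (versions: not given in the sources used here). In the deposited table, a signal column gives each gene's normalized count averaged over the libraries. For every comparison the authors added a log2 fold change, an error of that change, a Wald statistic (a score) and a p-value. It holds 0 columns per library. The authors' adjusted p-values were not used.

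The authors' contrasts entered only as material for the rebuilding, since nothing else was given, and their own values are not printed. Group means were solved from the mean and the 3 log2 changes, assuming equal group sizes. The dispersion implied by the standard errors at 3 libraries per group gave the standard error of the direct difference, tested by a two-sided Wald test against the normal with Benjamini-Hochberg adjustment over 17726 genes. The labels list 4 samples per group and the study gives fewer. The dispersions implied by the 2 contrasts differed by a median of 0.00533 at 3 libraries, 0.00931 at 2 and 0.00887 at 4, over 563 genes. Intervals are 95% normal intervals on log2 differences. The algebra of the rebuilding was checked on simulated data that shared its model, dispersions and library number. That check could not test these assumptions themselves. Python 3.11.15, numpy 2.4.6, pandas 2.3.3, scipy 1.17.1 and matplotlib 3.10.9 were used. Positions are from GENCODE (GRCm38).

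Named genes were the 12 higher and 12 lower with the largest difference among called genes whose mean reached 50 and whose symbol was not a predicted one, up to 4 called members a list (or the 2 of smallest p), the study's self-renewal and differentiation genes, Csf1 and the FGF receptors. Others are said to be chosen after their values were seen, and so were the 4 motifs and the list members given as contrast. Members and lists were chosen with earlier results of these data known. Alternatives changed the minimum mean, the limit on group means, the library number, the standard error, the null distribution and the centring. The 29 genes with a rebuilt group mean under 1 were not tested. Some genes are not reported here.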

Additional observations from a re-analysis of the deposited data

How the results depend on the processing

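The count of 208 genes (144 higher, 64 lower) was between 185 and 228 under 8 of the 9 alternatives. With the t distribution of 8 degrees of freedom it was 0, as were the counts higher (0) and lower (0) and those for fibroblast markers (0), interferon-stimulated genes (0), the ATF4 list (0) and aminoacyl-tRNA synthetases (0). Of 104 named genes, 52 lost their call there. The smallest adjusted p was then 0.258, for Atf4 among others, because that alternative uses only the degrees of freedom of 12 libraries. With no minimum of the mean, 3 interferon-stimulated genes passed and 185 genes in all, each of them among the 208, since 22963 genes were tested. Among the named genes, 5 lost their call with no minimum, 1 each with 4 libraries, with 2 libraries and with the larger standard error, 1 (Crabp1) gained a call with a mean of at least 50, and 0 changed direction. With a mean of at least 50, 208 genes also passed, 187 of them shared.

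No paired analysis was possible because the table holds no value per library, and for the same reason leaving out single replicates was not run. Intervals were wider for low genes: the median 95% interval spans 1.92-fold either way for means below 100 and 1.12-fold for means of at least 1000. The parts of depth and of the spread between libraries in this width were not separated.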

Other observations

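Of the 208 called genes, 188 were protein-coding, 9 were pseudogenes and 7 long noncoding RNAs. Reads of pseudogenes can be shared with their parent genes, so their values are uncertain. The genes in these paragraphs were named after their values were seen. The noncoding Neat1, which builds nuclear paraspeckles, had 1038, 1125, 1786 and 1115 in control, low FGF9, high FGF9 and FGF2 (ratio 1.60, interval 1.35 to 1.90).

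Of the 64 lower genes, 6 lie on chromosome X (9.38%), among them Radx, Sox3 and Gpc3. Of the 144 higher genes 7 do (4.86%), and of all genes tested 692 (3.90%). These shares are descriptions and were not tested. The potassium channel gene Kcna1, 1 of the lower genes, had 203, 206, 141 and 209.9 in the same order.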
